A study of Homo sapiens with 2 samples.

Results

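The 41 genes described here encode enzymes and regulators of cholesterol and fatty acid synthesis, and they were chosen by name from a table of 13137 genes. Of these, 40 were found under their own symbol and SC4MOL under its newer symbol MSMO1 (Entrez Gene ID 6307). They were divided into a sterol pathway of 26 genes and a fatty acid pathway of 15 genes. The table holds digital gene expression, in which a short sequence tag is counted for each captured mRNA, from A549, a human lung adenocarcinoma line. One arm, shRNA-SOX2, carried a hairpin against SOX2 and the other, shRNA-Con, a scrambled hairpin. Both hairpins were expressed from an H1 promoter with a tetracycline operator in puromycin-selected polyclonal cells grown with fetal bovine serum, and both cultures received doxycycline for 4 days before 4 µg of total RNA was taken. There was 1 library per condition, which gave 2304184 tags on genes for shRNA-Con and, for the library labelled shRNA-SOX2, 2093816. The value columns carry only the abbreviations SC and S1, of which SC was read as shRNA-Con and S1, by elimination, as shRNA-SOX2.

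Cholesterol is built from acetyl-CoA through mevalonate, the isoprenoid units and squalene, and squalene is then closed into lanosterol and trimmed to cholesterol in the endoplasmic reticulum. Fatty acids are built from the same acetyl-CoA by carboxylation and chain extension, and are then elongated, desaturated and coupled to coenzyme A. Many genes of both pathways, though not all members, are classical targets of the SREBP transcription factors. SCAP escorts these factors to the Golgi when sterols are low, and INSIG proteins hold them back when sterols are high. Many of these targets are therefore known to rise and fall together in cultured cells.

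SOX2 itself was counted 16 times in shRNA-Con and 23 times under the shRNA-SOX2 label, a ratio of 1.58 (95% Clopper-Pearson interval 0.800 to 3.20), so the tags do not show a loss of its mRNA and the condition is named by its label throughout. Of the epithelial markers, the keratins KRT8 (7702 and 12729 tags) and KRT19 (35 and 127) passed the test used for the members upward and KRT18 (10318 and 7887) passed it downward, while CDH1 had 50 tags in each library and EPCAM 8 and 4. NKX2-1, SFTPB and SFTPC, alveolar markers, were looked up and matched no listed gene, so no tags can be given for them. Of the markers of other cell types, PTPRC of leukocytes (2 and 2 tags) and PECAM1 of endothelium (3 and 0) were low. COL1A1 of fibroblasts had 44 and 43 tags, near the counts of CDH1 and above those of EPCAM. Among the 10045 genes that reached 20 tags over both libraries, the median log2 fold change (shRNA-SOX2 over shRNA-Con, per total of gene tags) was -0.10. Scaling by the clean tags of the whole libraries would lower every gene by a further 0.11 on the log2 scale.

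Calls in both directions were found in each pathway. Of the 26 sterol pathway genes, 4 passed the test upward in the library labelled shRNA-SOX2, 3 passed downward and 19 did not pass the test. Of the 15 fatty acid pathway genes, 1 was higher and 3 were lower, and 11 did not pass. The test was a two-sided Fisher's exact test of a gene's tags against all others, adjusted by the Benjamini-Hochberg method over all 13137 genes, at a threshold of FDR 0.001, and a gene past it is called here. It compares these 2 libraries and not the conditions, because no second culture gives the spread between replicates. Of all genes, 9.53% were called higher and 12.2% lower. The split of the sterol calls moved with the scaling, to 4 higher and 2 lower with TMM factors and to 3 higher and 4 lower with clean tags. The split over all genes moved as well. With gene tags 1597 of 2849 calls were lower, with TMM factors 1381 of 2795 and with clean tags 2010 of 3018. Calls depend on depth, and among genes with at least 100 tags 10 of the 30 members (33.3%) were called against 39.1% of all 6237 genes. Among genes with fewer tags 1 of 11 members was called, against 5.94% of all genes. These shares do not set the members apart from other genes, and no test of the difference was made.

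Among the 24 sterol pathway genes with at least 20 tags the log2 fold change had its median at 0.18 (range -1.23 to 1.96), with 14 above 0 and 10 below. The 14 fatty acid pathway genes with as many tags had a median of -0.15 (range -1.55 to 1.001), with 6 above 0 and 8 below. A change of at least 1.5-fold, taken without regard to the test, was found upward in 8 and downward in 3 of the 24 sterol genes, and upward in 2 and downward in 3 of the 14 fatty acid genes. Of the 10045 genes with 20 tags, 20.5% were at least 1.5-fold higher and 26.6% at least 1.5-fold lower. The sign of the sterol median depended on the depth required, and with at least 100 tags it was -0.30 over 19 genes.

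**Figure D1:**
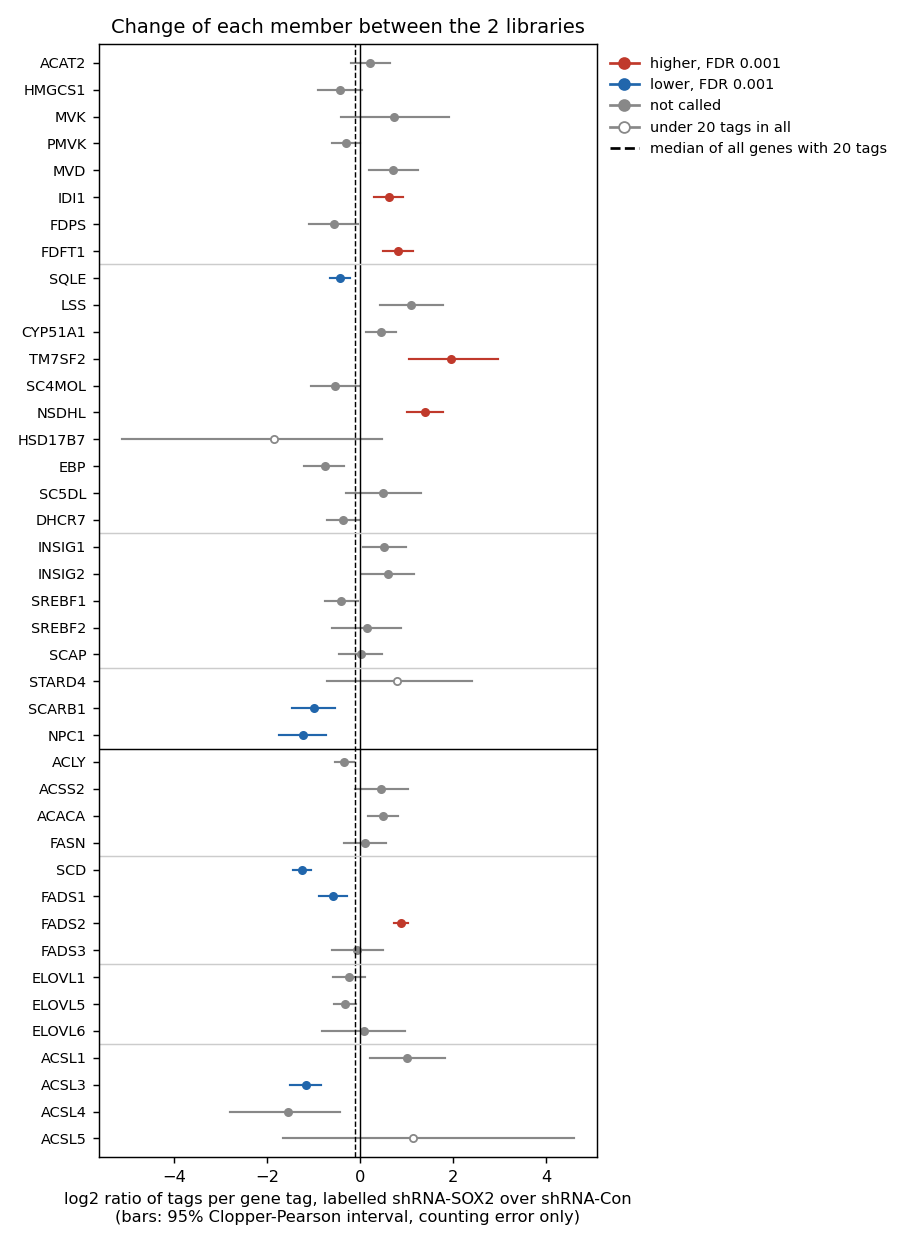
The log2 ratio of each of the 41 members is drawn as a point with its 95% Clopper-Pearson interval, which covers counting error only, for the shRNA-SOX2 label over shRNA-Con. Red and blue mark the 5 genes called higher and the 6 called lower, open points have under 20 tags in all, and the dashed line is the median of all genes at -0.10; the black line between NPC1 and ACLY parts the sterol from the fatty acid pathway.

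The first arm of sterol synthesis, from acetyl-CoA to squalene, contained 2 of the genes called higher and no gene called lower (0 of 8). IDI1 (Entrez Gene ID 3422), which isomerises the isoprenoid unit isopentenyl diphosphate, rose from 153 tags in shRNA-Con to 212 tags in the library labelled shRNA-SOX2 (ratio 1.52, 95% interval 1.23 to 1.89; adjusted p = 0.000336, Fisher's exact test). FDFT1 (2222), squalene synthase and the first enzyme committed to sterols, rose from 137 to 218 tags (ratio 1.75, 1.41 to 2.18; adjusted p = 1.72e-06, Fisher's exact test). FDFT1 was called under each scaling tried, whereas IDI1 was not called with clean tags (adjusted p = 0.00425, Fisher's exact test).

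The other enzymes of this arm did not pass the test, and their values pointed both ways. HMGCS1, the synthase that makes HMG-CoA, had 95 tags in shRNA-Con against 64 in the other library, and PMVK, a mevalonate pathway kinase, had 221 and 163. FDPS, which makes farnesyl diphosphate, had 85 and 52 tags, and 8 pseudogenes are named after it in GENCODE release 29, so its tags are uncertain. These 3 genes had log2 fold changes between -0.57 and -0.30. MVD, the decarboxylase that yields isopentenyl diphosphate, had 52 and 77 tags, MVK, mevalonate kinase, had 12 and 18, and ACAT2, the thiolase that opens the pathway, had 95 and 100. Fold changes of both signs thus stood beside each other along the route. Together the 8 genes held 369 CPM (tags per-million gene tags) in shRNA-Con against 432 CPM under the SOX2 hairpin label, a ratio of the sums of 1.17 (1.06 to 1.29).

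The second arm, from squalene to cholesterol, contained 2 genes called higher and 1 called lower. One of them, NSDHL, had the lowest adjusted p-value of the sterol pathway. NSDHL (50814), a dehydrogenase that acts in the removal of the methyl groups at carbon 4 of the sterol ring, rose from 82 tags to 195 (ratio 2.62, 2.01 to 3.43; adjusted p = 3.37e-13, Fisher's exact test). TM7SF2 (7108), a sterol reductase of the double bond at carbon 14, rose from 13 tags to 46 (ratio 3.89, 2.07 to 7.86; adjusted p = 1.76e-05, Fisher's exact test). The interval of TM7SF2 is wide because its level in shRNA-Con rests on 13 tags. SQLE (6713), squalene epoxidase and a rate-limiting step of the pathway, fell from 439 tags to 294 (ratio 0.737, 0.634 to 0.856; adjusted p = 0.000247, Fisher's exact test). The fall of SQLE was not called with TMM factors (adjusted p = 0.00307, Fisher's exact test) or the median ratio (adjusted p = 0.00273, Fisher's exact test).

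The partners of these enzymes did not pass. EBP, the sterol isomerase, lay just short of the threshold with 133 tags in shRNA-Con against 71 in the other library (adjusted p = 0.00115, Fisher's exact test), as did LSS, lanosterol synthase, with 30 and 58 (adjusted p = 0.00246, Fisher's exact test). EBP was called lower with clean tags (adjusted p = 0.000129, Fisher's exact test) and when a minimum of 10 tags was set. SC4MOL (MSMO1), the methyl oxidase that works on the same carbon as NSDHL, had 86 and 54 tags, against the 82 and 195 of NSDHL. HSD17B7, the ketoreductase of that step, had 8 and 2 tags (ratio 0.275, 0.028 to 1.38), too few to show a difference at this depth. CYP51A1, the demethylase of carbon 14, had 145 and 179 tags, DHCR7, the last reductase, had 169 and 119, and SC5DL, the desaturase before it, had 25 and 32. In this arm too, neighbouring steps had fold changes of both signs. The 10 genes together held 490 CPM in shRNA-Con against 501 CPM in the second library (ratio of the sums 1.02, 0.939 to 1.11).

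**Figure D2:**
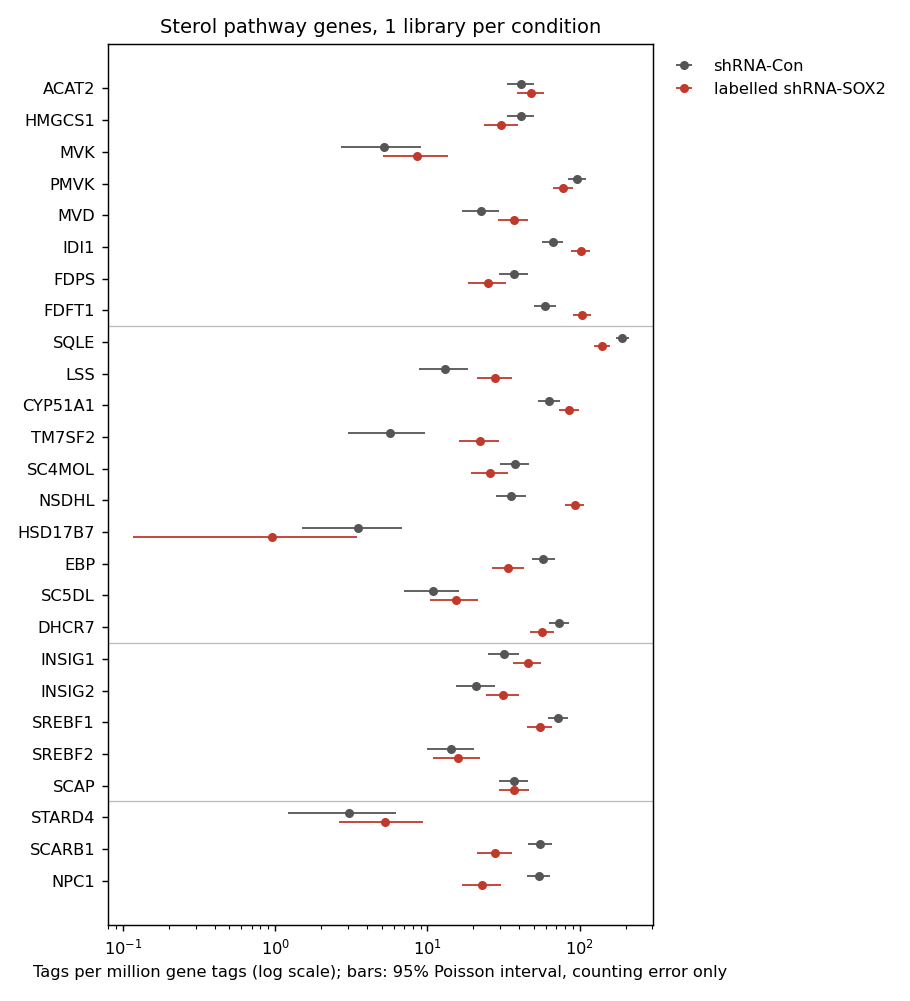
Levels of the 26 sterol pathway genes in both libraries are given in CPM (tags per-million gene tags) on a log axis, in pathway order, with 95% Poisson intervals that cover counting error only. Grey lines part the arm to squalene, the arm to cholesterol, the SREBP regulators and sterol transport; NSDHL went from 35.6 to 93.1 CPM, while SQLE, the highest of the enzymes, went from 190.5 to 140.4.

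Promoters of the members were compared because SREBP proteins are known to act beside the factors NF-Y and SP1. RefSeq windows of 300 bases (250 before to 50 after a gene's start, GRCh38.p14, first start listed) were matched for 36 of the 41 members, and ACAT2, FDFT1, SQLE, SCARB1 and FASN were not analysed here. On both strands the letters CCAAT, the NF-Y core, were found in 15 of 22 sterol promoters (68.2%) and 7 of 14 fatty acid promoters, against 36.5% of the 10533 promoters of genes in the table and 35.7% of all 27305. The GC box GGGCGG was found in 21 of 22 and 11 of 14, against 69.2% and 44.6%. The sterol regulatory element TCACNCCAC was found in 1 of 22 (SREBF2) and 0 of 14, against 1.01% and 1.15%, and the SOX core CATTGT in 1 of 22 (SREBF1) and 1 of 14 (ELOVL5), against 6.12% and 10.97%. Of the 47 CCAAT matches in the members, 1 shared a base with another of these motifs. These motifs were searched after the changes were known, and a match is a description of letters only.

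Among called members, CCAAT was present in 2 of 4 promoters of genes called higher and in 2 of 4 of genes called lower, so it stood beside changes of both signs. The windows of the 3 sterol genes called higher that were matched are shown because they differ in this feature, with 5, 1 and 0 matches. Capitals mark CCAAT or, on the other strand, ATTGG, and each sequence runs 5′ to 3′ on the strand of its gene. NSDHL lies at chrX:152830813-152831112 (plus strand), TM7SF2 at chr11:65111622-65111921 (plus strand) and IDI1 at chr10:1056655-1056954 (minus strand).
NSDHL: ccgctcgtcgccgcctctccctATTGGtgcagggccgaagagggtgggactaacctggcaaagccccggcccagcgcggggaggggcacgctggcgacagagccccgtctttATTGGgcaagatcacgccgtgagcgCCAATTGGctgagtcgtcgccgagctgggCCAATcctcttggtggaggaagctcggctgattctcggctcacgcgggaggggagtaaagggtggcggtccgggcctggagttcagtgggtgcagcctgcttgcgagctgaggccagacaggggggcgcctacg
TM7SF2: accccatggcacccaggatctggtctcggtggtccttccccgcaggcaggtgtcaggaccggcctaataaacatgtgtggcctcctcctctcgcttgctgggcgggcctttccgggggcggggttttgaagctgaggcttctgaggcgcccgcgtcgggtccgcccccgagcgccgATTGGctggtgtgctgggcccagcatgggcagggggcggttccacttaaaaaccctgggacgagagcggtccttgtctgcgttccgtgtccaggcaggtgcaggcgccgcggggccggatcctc
IDI1: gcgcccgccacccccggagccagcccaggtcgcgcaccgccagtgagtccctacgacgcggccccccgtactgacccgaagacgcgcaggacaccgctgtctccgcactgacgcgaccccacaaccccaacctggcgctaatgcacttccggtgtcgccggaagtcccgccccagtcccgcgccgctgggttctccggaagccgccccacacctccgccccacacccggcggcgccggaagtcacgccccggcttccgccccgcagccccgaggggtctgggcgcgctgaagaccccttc

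The regulators of the pathway were not called (0 of 5). SREBF1, which encodes the SREBP best known for fatty acid genes, had 166 tags in shRNA-Con against 114 in the other library (ratio 0.756, 0.590 to 0.965; adjusted p = 0.0597, Fisher's exact test). SREBF2, the SREBP best known for sterol genes, had 33 tags in each library (ratio 1.10, 0.658 to 1.84). SCAP, the escort protein, had 85 and 78 tags. INSIG1, itself a well known SREBP target, had 73 and 95 tags and INSIG2 48 and 66, with adjusted p-values of 0.0635 and 0.0759 in Fisher's exact test. None of these intervals, which reach up to 2.24 for INSIG2 and down to 0.590 for SREBF1, shows that the regulators were equal in the libraries.

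Sterol transport contained the deepest called decreases of the sterol pathway. NPC1 (4864), which exports cholesterol from lysosomes, fell from 124 tags to 48 (ratio 0.426, 0.299 to 0.599; adjusted p = 1.24e-06, Fisher's exact test). SCARB1 (949), a receptor for high density lipoprotein, fell from 127 tags to 58 (ratio 0.503, 0.362 to 0.691; adjusted p = 5.24e-05, Fisher's exact test). Both were called under each scaling tried. STARD4, a cytosolic cholesterol carrier, had 7 and 11 tags, which allows a ratio between 0.612 and 5.26.

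In the fatty acid pathway the called changes were in desaturases and in an acyl-CoA synthetase, and no gene of the core synthesis route passed the test (0 of 4). ACLY, which supplies cytosolic acetyl-CoA from citrate, had 460 tags in shRNA-Con against 330 in the second library (ratio 0.789, 0.683 to 0.911; adjusted p = 0.00405, Fisher's exact test). With clean tags it was called (adjusted p = 6.64e-05, Fisher's exact test). ACACA, the carboxylase that makes malonyl-CoA, had 146 and 186 tags, and ACSS2, which makes acetyl-CoA from acetate, had 49 and 61. FASN, fatty acid synthase, had 84 and 82 tags, a ratio of 1.07 (0.783 to 1.47). The 4 genes together had a ratio of the sums of 0.981 (0.882 to 1.09).

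The 3 called desaturases went in opposite directions. SCD (6319), which makes oleate from stearate, had 855 tags in shRNA-Con, the most of any member there, and fell to 326 in the library labelled shRNA-SOX2 (ratio 0.420, 0.368 to 0.477; adjusted p = 5.96e-43, Fisher's exact test). FADS2 (9415), which makes the first desaturation step in the synthesis of long polyunsaturated chains, rose from 543 tags to 909, the most of any member in that library (ratio 1.84, 1.65 to 2.05; adjusted p = 8.09e-29, Fisher's exact test). FADS1 (3992), which acts after FADS2, fell from 242 tags to 147 (ratio 0.668, 0.541 to 0.824; adjusted p = 0.000539, Fisher's exact test), a call lost with TMM factors (adjusted p = 0.00319, Fisher's exact test) and with the median ratio (adjusted p = 0.00273, Fisher's exact test). FADS3, the third gene of this cluster on chromosome 11, had 62 and 54 tags. FADS2 thus had 2.24 tags for each tag of FADS1 in shRNA-Con against 6.18 in the other library. Against SCD it had 0.635 tags in shRNA-Con against 2.79 in the other, so that the order of the 2 desaturases with the most tags was exchanged. These ratios within a library do not depend on the scaling.

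In GENCODE release 29, FADS1 and FADS2 share 490 exon bases on opposite strands, and FADS2 shares 49 exon bases with FEN1 on its own strand. FEN1, a flap endonuclease of DNA replication, had 82 and 184 tags. The shared bases lie at least 16637 bases of genomic sequence from the 3′ end of either desaturase gene, and how tags of overlapping genes were counted is not given in the sources used here. Of the 11 called members, 7 share some exon bases with another gene, and the nearest such base (IDI1 with the antisense RNA IDI2-AS1) lies 4377 bases from the 3′ end of the member. SCD has a pseudogene, SCDP1, and FADS2 has FADS2P1. The part of shared tags in these results was not tested.

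The promoter window of SCD is shown beside that of NSDHL because both hold CCAAT while their tags moved in opposite directions. It lies at chr10:100346983-100347282 (plus strand, GRCh38.p14, RefSeq) and has 2 matches, in capitals.
SCD: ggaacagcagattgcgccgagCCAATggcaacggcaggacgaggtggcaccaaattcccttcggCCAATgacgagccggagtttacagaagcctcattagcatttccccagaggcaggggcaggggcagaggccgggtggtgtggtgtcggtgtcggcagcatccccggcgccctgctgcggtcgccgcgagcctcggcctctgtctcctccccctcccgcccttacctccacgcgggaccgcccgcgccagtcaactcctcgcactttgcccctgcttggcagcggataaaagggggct

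The acyl-CoA synthetases, which activate fatty acids for use in lipids or oxidation, were uneven. ACSL3 (2181), which acts at lipid droplets and the endoplasmic reticulum, fell from 268 tags to 108 (ratio 0.443, 0.351 to 0.556; adjusted p = 1.80e-12, Fisher's exact test) and was called under each scaling. ACSL4, which prefers arachidonate, had 29 and 9 tags (ratio 0.342, 0.142 to 0.741; adjusted p = 0.0107, Fisher's exact test). ACSL1 had 22 and 40 tags (ratio 2.001, 1.16 to 3.53; adjusted p = 0.0303, Fisher's exact test), and ACSL5 had 2 and 4. The family sum was 139 CPM in shRNA-Con against 76.9 CPM in the other library, a ratio of 0.552 (0.454 to 0.669). ACSL3 made up most of this sum.

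The elongases differed less. ELOVL5, which extends polyunsaturated chains, had 357 and 258 tags (ratio 0.795, 0.675 to 0.936; adjusted p = 0.0169, Fisher's exact test), and it was called with clean tags. ELOVL1, for very long saturated chains, had 168 and 129 tags, and ELOVL6, for chains of palmitate length, had 24 and 23. None of the 3 was past FDR 0.001 with gene tags.

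**Figure D3:**
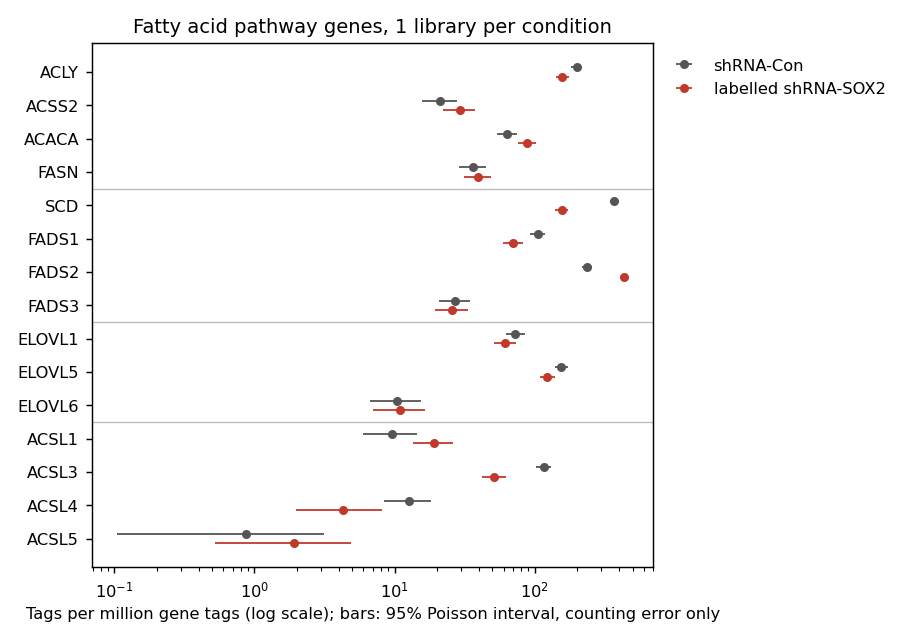
Levels of the 15 fatty acid pathway genes are drawn in CPM on a log axis with 95% Poisson intervals for counting error only, and grey lines part core synthesis, desaturases, elongases and acyl-CoA synthetases. SCD went from 371 to 156 CPM and FADS2 from 236 to 434, so the pair changed places.

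Sums were also taken over the whole pathways. The 26 sterol pathway genes had 1147 CPM in shRNA-Con against 1173 CPM in the second library, a ratio of 1.02 (0.968 to 1.08). The 18 enzymes of sterol synthesis among them had 859 and 933 CPM, a ratio of 1.09 (1.02 to 1.16). The 15 fatty acid genes had 1437 and 1273 CPM, a ratio of 0.886 (0.842 to 0.933). Without SCD that ratio was 1.05 (0.990 to 1.11), and without FADS2 it was 0.699 (0.658 to 0.742). Without both it was 0.823 (0.768 to 0.882). The fatty acid sum was thus lower with both of these desaturases, with neither, and with SCD but not FADS2. With FADS2 but not SCD, the interval showed no difference.

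**Figure D4:**
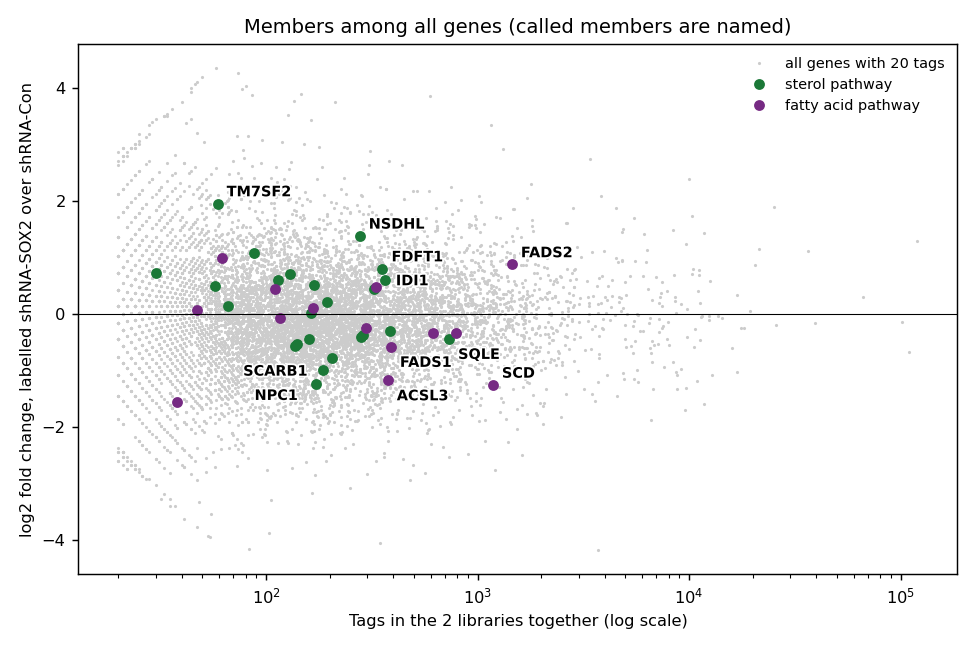
Each grey point is one of the 10045 genes with at least 20 tags, placed by its tags in the 2 libraries together (log axis) and its log2 fold change, and green and purple points are the sterol and fatty acid members with as many tags. The 11 called members, which carry their names, lie within the cloud of all genes, from -1.25 for SCD to 1.96 for TM7SF2.

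Other lipid genes were listed by their roles. Of 14 other sterol genes, 3 were called higher and 2 lower, with a median log2 fold change of 0.25 over the 13 with 20 tags. Of all genes, 9.53% were called higher and 12.2% lower, and of those with at least 100 tags 39.1% were called in either direction. LBR, which shares the sterol reductase activity of TM7SF2 and also anchors chromatin at the nuclear lamina, rose from 180 tags to 461 (log2 fold change 1.49). TM7SF2 had 0.072 tags for each tag of LBR in shRNA-Con against 0.0998 in the other library. SOAT1, which esterifies cholesterol, rose from 82 to 150 tags (1.01) and NPC2, the lysosomal partner of NPC1, from 422 to 735 (0.94). MBTPS2, a protease that releases active SREBP, fell from 115 to 37 tags (-1.50). NPC1 and NPC2, which act in the same transfer of cholesterol, thus had called changes of opposite sign.

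Of 17 other fatty acid synthesis genes, 3 were called higher and 2 lower, against 9.53% and 12.2% of all genes. Their median was 0.15 over the 14 with 20 tags. ELOVL7, a further elongase, fell from 25 tags to 3 (ratio 0.132, 0.026 to 0.433). The ketoreductase HSD17B12 rose from 365 to 512 tags and TECR, the reductase that ends each elongation cycle, fell from 365 to 217. IDH1, a source of NADPH, rose from 177 to 263 tags. These enzymes act in one elongation cycle with the ELOVL proteins or feed it.

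Genes of fatty acid oxidation, the opposite route, had calls in the upward direction only, under each scaling tried. Of 25 names listed, some of them older symbols of the same gene, 22 matched, and 9 were called higher and 0 lower, against the 9.53% and 12.2% of all genes. All 9 were among the 18 with at least 100 tags, a depth at which 16.6% of all genes were called higher and 22.5% lower. The 21 with at least 20 tags had a median log2 fold change of 0.47, with 19 above 0. SLC25A20, the mitochondrial carnitine carrier, rose from 52 tags to 143 and CPT1A, the gatekeeper of mitochondrial import, from 124 to 210. ETFB, which takes electrons from the acyl-CoA dehydrogenases, rose from 225 to 487 tags and ACAD9, a dehydrogenase also needed for complex I assembly, from 78 to 147. With clean tags 8 of the 22 were called higher, and when a biological coefficient of variation of 0.2 was assumed none was (0 of 22). No test of the difference between this list and the synthesis genes was made.

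**Figure D5:**
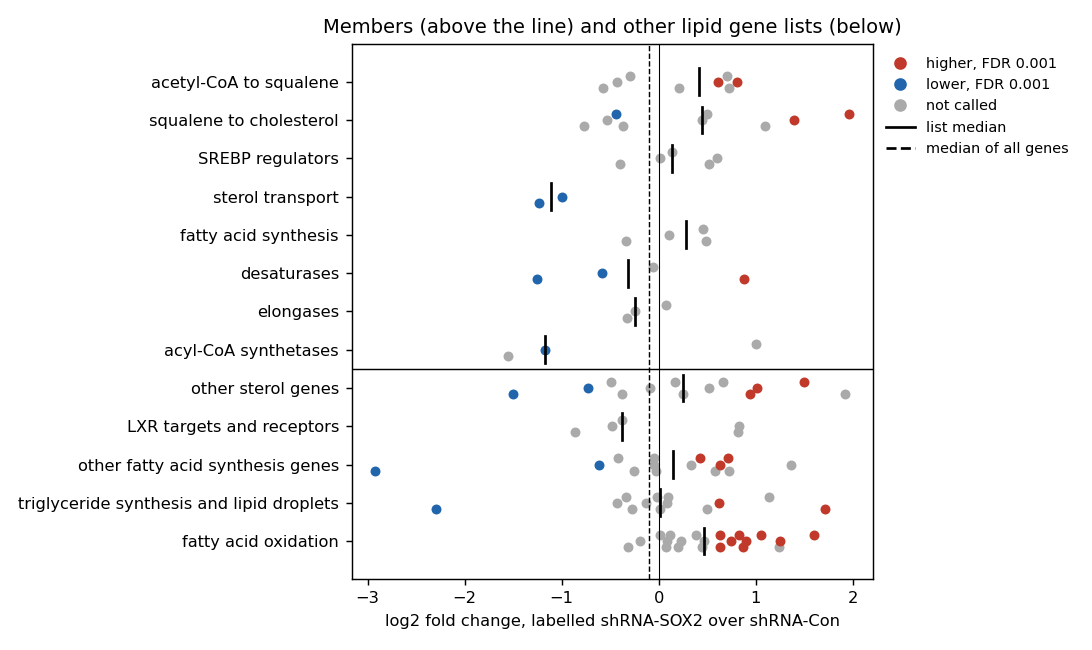
Log2 fold changes of genes with at least 20 tags are drawn by role, with the members above the line and the other lipid genes below it, and short bars mark each list's median. Red and blue points are genes called higher and lower; the 9 called genes of fatty acid oxidation are all red, with a list median of 0.47 against -0.10 for all genes (dashed).

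Fisher's test takes the spread between cultures as 0. When the biological coefficient of variation was assumed to be 0.1 in edgeR's exact test, 5 of 41 members were called. Of all 13137 genes, 1166 (8.88%) were called at that setting. Among these members NSDHL, TM7SF2 and FADS2 were higher, and SCD and ACSL3 were lower. With 0.2 no member was called (0 of 41), while 113 genes of all 13137 were. At 0.2, 5 sterol and 4 fatty acid genes had an unadjusted p under 0.05, against 2481 of all genes.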

How the data were processed

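Tags of oligo(dT)-selected mRNA from 1 library of each condition were counted at the Beijing Genomics Institute, and the authors deposited them as raw counts per Entrez Gene ID. The submitters' processing notes name hg19, and the aligner and annotation are not given in the sources used here. The authors' deposited TPM scales each count to the clean tags of its library (a gene without tags is entered as 0.01) and was used only to recover the totals of clean tags, of which 65.5% were on genes in shRNA-Con, against 60.6% under the shRNA-SOX2 label. Their deposited log2 ratios, p-values and FDR compare the libraries and were not used.

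Fold changes were taken per total of gene tags, with counts below 3 set to 3, and ratios of tags carry 95% Clopper-Pearson intervals. Tags have no molecular identifiers, so intervals cover counting error only. Fisher's exact test, two-sided and adjusted by the Benjamini-Hochberg method over 13137 genes, was checked on simulated data. The simulated counts were Poisson draws with no spread between cultures, as the test assumes. The check therefore cannot show how often single cultures differ without an effect of the hairpin. A count of 0 allows 3 tags, or 1.43 CPM under the shRNA-SOX2 label and 1.30 CPM in shRNA-Con, where CPM is tags per-million gene tags. The 19 rows with no symbol, which held under 0.1% of gene tags, stayed in the totals because they carry gene identifiers. The tests ran in scipy 1.17.1 under Python 3.11.15. Scaling factors came from edgeR 4.0.16 and DESeq2 1.42.0, both under R 4.3.3, and edgeR also gave the exact test with an assumed spread. Alternatives were other scalings, tag minimums, thresholds, 0.5 added to each count and an assumed biological coefficient of variation. All 41 members were to be named, with at most 4 genes, the largest called changes, from each further list. Members and lists were chosen with earlier results of these data known.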

Additional observations from a re-analysis of the deposited data

How the results depend on the processing

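No paired analysis was possible because a single library stands for each hairpin, and no library could be left out. The motif search, and the scalings applied to the 1.5-fold counts, to SOX2 and to fatty acid oxidation, were chosen after seeing the data. With TMM factors, the median ratio or clean tags the number of called sterol genes was 6, 6 and 7 and of fatty acid genes 3, 3 and 6. Of all 13137 genes, 2795, 2786 and 3018 were called under these scalings. Under each of them and with gene tags, 8 members (ACSL3, FADS2, FDFT1, NPC1, NSDHL, SCARB1, SCD and TM7SF2) were called. How many of all genes were called under every one of these scalings was not counted, so this number does not set the members apart. When edgeR's exact test was given a biological coefficient of variation of 0.1, 0.2 and 0.4, it called 2, 0 and 0 sterol genes. It called 3, 0 and 0 fatty acid genes, against 1166, 113 and 0 of all 13137 genes. At 0.4 it called 0 genes of the whole table, with 627 genes, 1 sterol and 0 fatty acid members at an unadjusted p under 0.05. Fewer calls come with a larger assumed spread by construction. The fatty acid oxidation genes called numbered 0 with a coefficient of 0.2. FDR 0.05 gave 11 sterol and 9 fatty acid genes, and requiring 1 log2 unit left 3 and 2. The share of all genes past these thresholds was not taken, so these counts do not set the members apart. With at least 100 tags the sterol median was -0.30, and the cause was not tested. Small values changed sign, to -0.10 for SCAP, -0.0099 for FASN and -0.037 for ELOVL6 with clean tags, and to 0.012 and 0.0093 for FADS3 with TMM factors and the median ratio. Adding 0.5 to each count changed the direction of 0 members. Depth limits HSD17B7, STARD4 and ACSL5, with under 20 tags each.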

Other observations

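Genes that store and release triglycerides, which were not among the members, included called changes in both directions. MGLL, monoacylglycerol lipase, fell from 509 tags in shRNA-Con to 94 under the shRNA-SOX2 label (log2 fold change -2.30; adjusted p = 1.24e-59, Fisher's exact test). LPIN1, a phosphatidate phosphatase that also acts as a transcriptional coactivator, rose from 308 tags to 920 (1.72; adjusted p = 1.67e-82, Fisher's exact test), and PNPLA2, the lipase that starts triglyceride breakdown, rose from 349 to 486 (0.62; adjusted p = 1.02e-08, Fisher's exact test). These 3 were the called genes among 14 of this list, whose median over 13 genes with 20 tags was 0.01 against -0.10 for all genes. By the same test 9.53% of all genes were called higher and 12.2% lower. Of the 5 LXR receptors and targets, which respond to oxysterols, 0 were called by Fisher's exact test at FDR 0.001. ABCG1, a sterol exporter, had 90 and 45 tags (ratio 0.550, 0.376 to 0.795; adjusted p = 0.00389, Fisher's exact test) and was named after its value was seen.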
